A study of Mus musculus with 4 samples.

Results

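The immunoglobulin variable (V) segments of the mouse were examined in CD8+ T cells for H3K9me3, a histone modification found in heterochromatin. Members were all genes whose symbol begins with Ighv, Igkv or Iglv followed by a digit in RefSeq's list of mouse genes on assembly GRCm38.p6 (mm10). They numbered 348 of the 49595 genes that the list places on the chromosomes: 183 heavy chain segments on chromosome 12, 162 kappa segments on chromosome 6 and 3 lambda segments on chromosome 16. The table annotates 225 of them as V segments and 123 as V segment pseudogenes. No member lay outside these 3 loci.

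The mice were wild-type animals of strain C57BL/6, and CD8+ T cells were profiled. One group was taken on day 3 of culture with anti-CD3 and anti-CD28 antibodies plus IL-2, and the other was naive, on day 0. Native ChIP, in which chromatin is cut with micrococcal nuclease without cross-linking, was done on both, with 1 ChIP library per day. The labels do not say how many mice gave the cells or how pure the cells were, and lists of enriched regions hold no expression values against which the cell type could be checked. The 2 input libraries were not analysed here.

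Each V segment carries the coding sequence of most of an antibody's variable domain. In developing B cells the RAG recombinase joins a V segment to J segments, or to D and J segments in the heavy chain locus, while T cells normally leave the immunoglobulin V segments in germline order and join T cell receptor segments. In lymphocytes the long arrays of V segments are known to be opened, contracted and closed by chromatin and by factors such as Pax5, Ctcf and Yy1. H3K9me3 is best known from repeats and from silent clustered gene families.

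The data were the authors' lists of significant islands. An island joins neighbouring windows in which ChIP reads were enriched, and carries a number that the lists do not name. It is a whole number and was taken here to be the reads in the island, and every read count, density and Poisson interval rests on that reading. There were 47553 islands on day 3, summing to 10423178 reads, and 19989 on day 0, summing to 3402787. Autosomes were covered over 8.07% on day 3 and 4.08% on day 0. The reads were not scaled for depth, and the mapped depth of the libraries is unknown. A test between days needs replicates and none was made, so all differences are between 2 libraries and intervals cover counting error only. Densities started at 34.1 reads per kb for day 3 islands against 23.6 for day 0 islands, so an island listed on day 0 alone need not mark a loss. V segments belong to families of similar copies, and how reads with more than 1 possible place were treated is not stated in the labels. A segment without an island is therefore one over which no region passed the authors' threshold, not one shown to lack the mark.

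Few V segments lay under an island on either day. An island touched 18 of the 348 segments on day 3 (5.17%, 95% Wilson interval 3.30 to 8.03) and 6 on day 0 (1.72%, interval 0.793 to 3.71), counting an overlap of at least 1 bp. Among all genes listed, 18.3% had one on day 3 against 14.7% on day 0, but most of those genes are far longer. Among the 13443 genes no longer than the longest V segment (1167 bp), which include the V segments, the shares were 4.92% on day 3 and 2.78% on day 0. The share of V segments with an island on day 3 was thus near that of short genes. Of the 348 segments, 17 had an island on day 3 alone, 5 on day 0 alone and 1 on both days, and 325 had none. The share of all genes with an island on both days was not counted. With so few segments covered, these counts do not show that the days differ in which segments they cover. When islands below their list's median density were dropped, the counts were 11 on day 3 and 1 on day 0.

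The heavy chain and kappa V regions differed more in what lay between their segments. A V region was taken from the first to the last V segment of its locus. The heavy chain V region (mm10 chromosome 12, 113572929 to 116009954, 2437 kb) was covered over 8.99% by 44 islands on day 3 and over 1.57% by 8 islands on day 0. The kappa V region (chromosome 6, 67555636 to 70704177, 3149 kb) was covered over 3.38% by 29 islands on day 3 and over 1.42% by 8 islands on day 0. The lambda V region (chromosome 16, 19085017 to 19260844, 176 kb) was covered over 6.14% by 3 islands on day 3 and held none on day 0. Day 3 thus exceeded day 0 by 5.74 times in the heavy chain V region and by 2.39 times in the kappa V region, against 1.98 times over all autosomes. The kappa ratio and its order against the autosomes depended on the islands kept. With only as many day 3 islands as the day 0 list holds, those richest in reads, it was 1.07 against 1.18 over autosomes, and with islands below their list's median read count dropped it was 1.90 against 2.12. The heavy chain ratio was 4.49 and 8.66 in the same settings, and stayed above that of the autosomes.

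**Figure D1:**
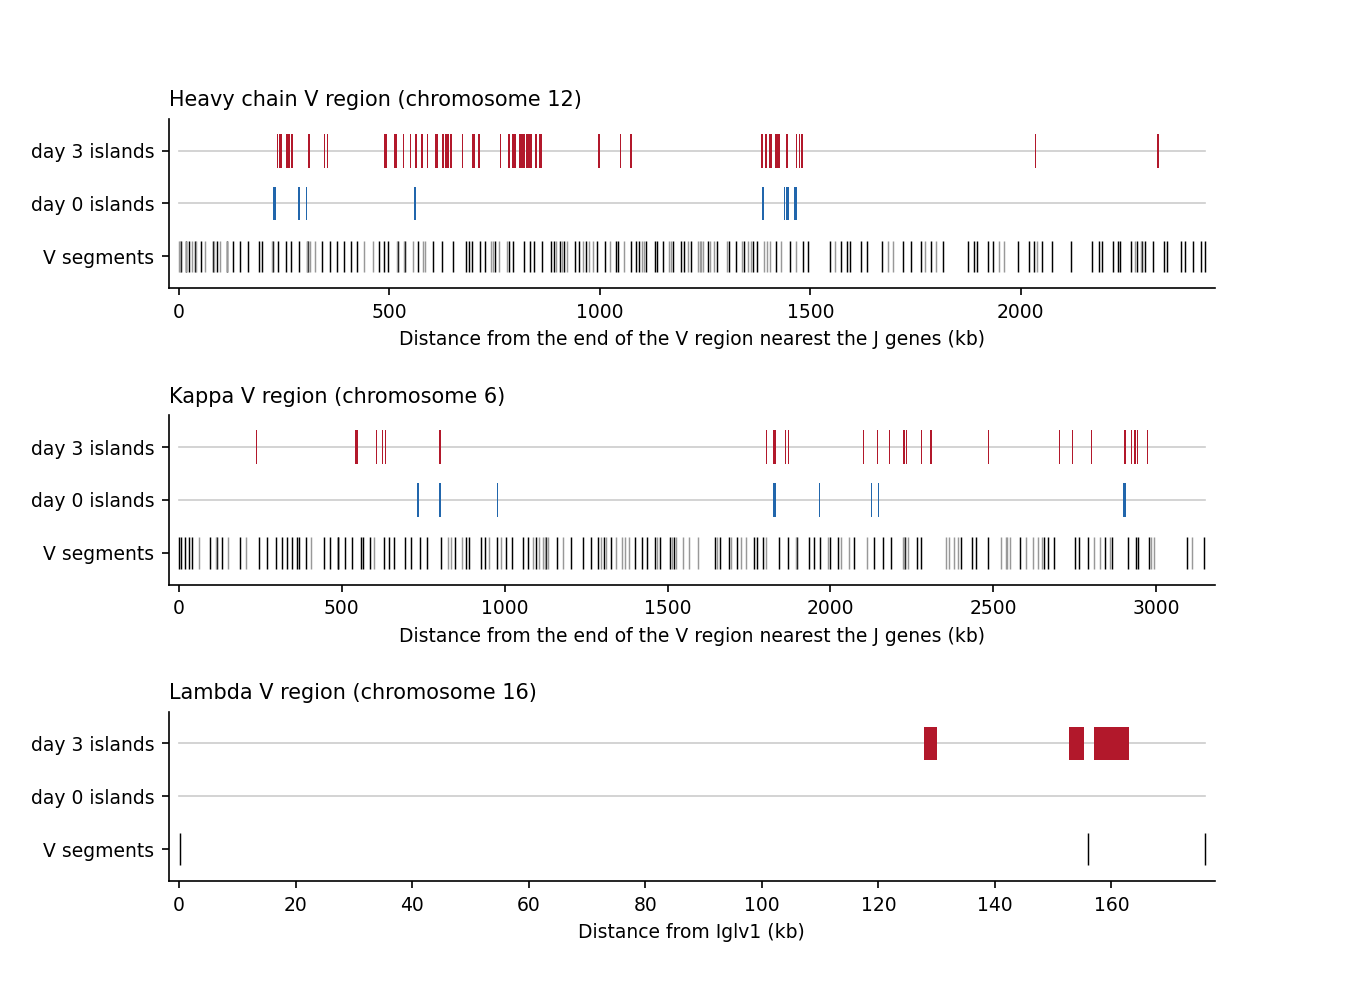
Map of the heavy chain, kappa and lambda V regions, with islands of day 3 (red, drawn to scale), islands of day 0 (blue) and V segments (black, pseudogenes grey) at their distance in kb from the end of the region nearest the J genes, or from Iglv1 for lambda. The 44 heavy chain islands of day 3 stand mostly in a run of 34 and a run of 8, and the kappa V region has a stretch of 997 kb with no day 3 island.

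The values were set beside all autosomal windows of the same length, tiled from the start of each chromosome and not corrected for sequence where reads cannot be placed. Of 1003 windows of 2.44 Mb, 59.9% were covered less than the heavy chain V region on day 3 and 14.8% on day 0. Their median coverage was 7.31% on day 3 and 3.68% on day 0. The heavy chain V region was therefore above the median on day 3 and below it on day 0. Among the 976 such windows with an island on day 0, 49 (5.02%) had a ratio of day 3 to day 0 at least as high. A low day 0 value raises that ratio. The difference between the days in the heavy chain V region was 7.43 percentage points, and 207 of the 1003 windows had one at least as large. Of 773 windows of 3.15 Mb, 20.7% were covered less than the kappa V region on day 3 and 11.4% on day 0. The kappa V region was low on both days, and 30.7% of 758 windows had a ratio of day 3 to day 0 at least as high. Its difference was 1.96 percentage points, and 469 of the 773 windows had one at least as large. Of 13982 windows of 0.176 Mb, 51.7% were covered less than the lambda V region on day 3. Only 9050 of them had an island on day 0, so having none, like the lambda V region, was common at that length.

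Flanks of 1 Mb were taken on each side of the whole locus, beyond its D, J and constant genes. The heavy chain V region, at 8.99% on day 3, stood above both of its flanks, with 0.720% on the side of the constant genes and 7.94% on the far side. At 1.57% on day 0 it stood below both, with 1.90% on the constant gene side and 5.86% on the far side. Both orders depended on the width of the flank. Within 500 kb of the locus the far flank had 59.8 kb covered on day 3, a larger share than the V region had, and within 2 Mb the constant gene flank was covered over 1.29% on day 0, less than the V region. The kappa V region stood below both flanks on both days. It was covered over 3.38% on day 3, against 11.0% in the flank beyond the constant gene and 13.1% in the far flank, and over 1.42% on day 0, against 5.32% and 8.42% in the same flanks. The lambda V region, at 6.14% on day 3, lay between 2.64% in the flank that holds Hira and 12.2% in the flank that begins with Olfr164. On day 0 it had no island, while those flanks were covered over 0.875% and 5.76%.

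**Figure D2:**
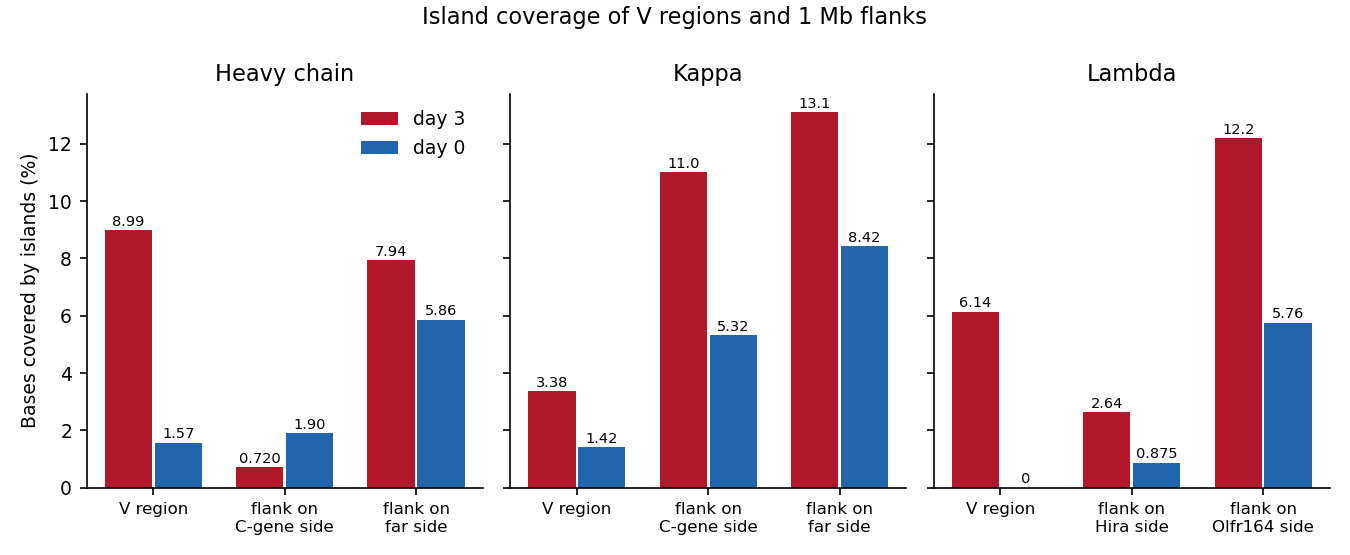
Percentage of bases covered by islands on day 3 (red) and day 0 (blue) in each V region and in the 1 Mb flank on either side of its locus, with 1 ChIP library per day. The heavy chain V region is the highest of its 3 bars on day 3 at 8.99% and the lowest on day 0 at 1.57%, and the kappa V region is the lowest on both days.

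The flanks differ in their genes. Over the whole gene list, protein-coding or not, islands touched 18.3% of genes (day 3) and 14.7% (day 0). Flank genes vary widely in length, from 0.891 kb for Vmn1r35 in the far kappa flank to 792 kb for Ptprn2 in the far heavy chain flank. A longer gene has more room for an island, and the flank counts were not corrected for this. They therefore do not show that a flank departs from those shares. The heavy chain flank beside the constant genes holds 27 protein-coding genes, of which none had an island on day 3 and 1, the sorting gene Pacs2, had one on day 0. The far flank holds 6, of which 5 had one on day 3 against 4 on day 0. Day 3 coverage was the greater in 3 of the 6 genes and day 0 coverage in 2. The condensin subunit gene Ncapg2 had 33.0% of its body covered on day 3 against 20.6% on day 0, while Wdr60 had 12.7% on day 3 against 19.4% on day 0 and Ptprn2 2.65% on day 3 against 5.02% on day 0. Of 14 protein-coding genes in the far kappa flank, 5 had an island on day 3 against 2 on day 0, and of 17 beyond the kappa constant gene, 7 had one on day 3 against 8 on day 0. Beside the kappa V region, Il23r, which encodes a subunit of the interleukin-23 receptor, had 20.8 kb covered on day 3 but none on day 0. Its neighbour Il12rb2 had 18.6 kb covered on day 3, against 5.80 kb on day 0. Cd8a and Cd8b1, the genes of the CD8 coreceptor that these cells carry, lie in the other kappa flank, and neither had an island on either day. In that flank coverage was the greater on day 3 in 7 genes and on day 0 in 3. Chmp3 had 49.5% of its body covered on day 3 against 8.77% on day 0, and Rmnd5a 38.8% against 16.9%. The 3 more covered on day 0 were Rpia, Eif2ak3 and Reep1. They had no island on day 3, while 12.1%, 5.93% and 4.84% of their bodies were covered on day 0. Within the V regions themselves the table holds no protein-coding gene.

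In the heavy chain V region the day 3 islands stood in 2 runs. Islands no more than 200 kb apart were counted as 1 run, a distance chosen after the positions were seen. The first run (113804401 to 114648000, 844 kb) held 34 islands that covered 19.9% of it and 9239 reads, and 67 V segments lay in it. The second (114955401 to 115056200, 101 kb) held 8 islands that covered 43.3% of it and 2438 reads, over a stretch with 8 V segments. The other 2 islands stood alone. Between and around the runs were long stretches with no day 3 island. One of 550 kb (115056201 to 115606000) holds 28 segments, from Ighv8-5 to Ighv1-67. Another, of 307 kb (114648001 to 114955400), holds 32 segments, from Ighv1-15 to Ighv1-43. The 24 segments nearest the D and J genes, from Ighv5-1 to Ighv2-6-8, lay in a stretch of 367 kb that reached beyond the V region. On all autosomes the median stretch between neighbouring day 3 islands was 18.4 kb. Stretches at least as long as the first of these made up 0.694%, as the second 1.89% and as the third 1.45%. These stretches were picked for their length, and the shares count stretches, not bases. They do not measure how rare such stretches are, and sequence where reads cannot be placed was not set aside.

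On day 0 the heavy chain islands were few, and most of the length of the first day 3 run held none. Of the 44 day 3 islands, 4 met a day 0 island. Of the 8 day 0 islands, 3 lay between 113797601 and 113877200 and 1 at 114130601 to 114136200. The other 4 lay between 114958001 and 115040400, the place of the second day 3 run. The longest stretch without a day 0 island ran over 1113 kb (115040401 to 116153000) and past the last segment, and it holds 53 segments. Another, of 822 kb (114136201 to 114958000), holds 74 segments and takes in all of the first day 3 run past 114136201. In bins of 100 kb counted from the end nearest the J genes, 12 of the 25 heavy chain bins (48.0%) had no coverage on day 3, against 20 (80.0%) on day 0. Among all autosomal bins of 100 kb, 32.1% had none on day 3 and 50.2% on day 0. The bin from 800 to 900 kb was the most covered on day 3, at 40.2%, and had no coverage on day 0. Of 24594 autosomal bins of 100 kb, 333 were covered at least as much on day 3. That bin was picked for its coverage, so this count does not measure how rare it is. The bin from 1400 to 1500 kb was covered over 34.0% on day 3 against 17.0% on day 0, the highest day 0 value of any heavy chain bin.

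The kappa V region was empty over a long central stretch. No day 3 island lay in the 997 kb from 68902201 to 69899600, which holds 61 segments from Igkv13-87 to Igkv12-40. Of the autosomal stretches between day 3 islands, 98 of 47526 (0.206%) were at least as long. This stretch too was picked for its length, so that share does not measure how rare it is. On day 0 a stretch of 844 kb (68880401 to 69724600) held no island and 51 segments. The kappa islands of day 3 lay mainly on the side away from the J genes. When the region was divided at its middle, the 1574 kb far from the J genes were covered over 4.95% by 21 islands on day 3 and over 1.79% by 5 islands on day 0. The 1574 kb near the J genes were covered over 1.80% by 8 islands on day 3 and over 1.04% by 3 on day 0. The heavy chain V region had the opposite order on day 3. There the 1219 kb near the J genes were covered over 13.8% on day 3 and 1.44% on day 0, and the 1219 kb far from them over 4.19% on day 3 and 1.69% on day 0.

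Most islands in the V regions stood between segments. Of the 76 islands on day 3, 18 overlapped a V segment, and of the 16 islands on day 0, 6 did. Segments themselves make up 2.43% of the heavy chain V region and 2.71% of the kappa V region. In the heavy chain V region 5.65% of segment bases were covered on day 3 and 1.79% on day 0, beside 8.99% and 1.57% of the whole region on those days. In the kappa V region 3.37% of segment bases were covered on day 3 and 1.84% on day 0, beside 3.38% and 1.42% of the region. The median distance from a heavy chain segment to the nearest island was 34.6 kb on day 3 against 184 kb on day 0, and from a kappa segment 64.5 kb on day 3 against 137 kb on day 0. The segments farthest from an island on day 3 were 270 kb away in the heavy chain V region and 498 kb away in the kappa V region.

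**Figure D3:**
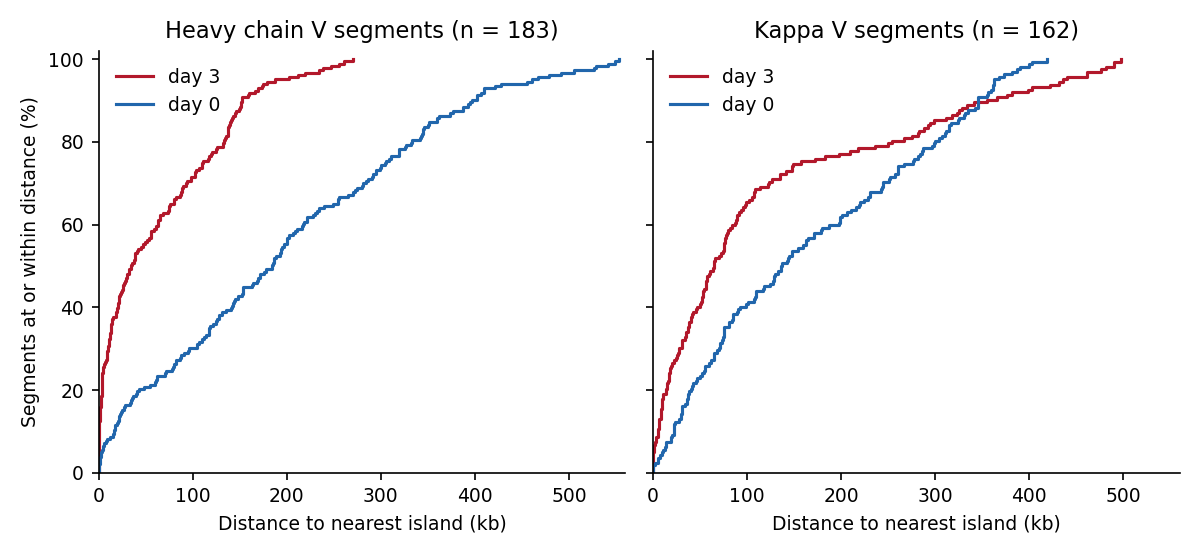
Cumulative share of the 183 heavy chain and 162 kappa V segments against the distance in kb from the segment to the nearest island, on day 3 (red) and day 0 (blue). The heavy chain curve of day 3 reaches 100% at 270 kb and that of day 0 at 553 kb, while the kappa curves cross and end at 498 kb on day 3 and 419 kb on day 0.

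Of the 183 heavy chain segments, 12 had an island on day 3 against 3 on day 0. Ighv6-3 (114391712 to 114392010), annotated as a V segment, lay wholly inside the longest island of the V regions on day 3. That island (114381201 to 114395400) ran over 14.2 kb and held 773 reads (exact 95% Poisson interval 719 to 829), and the nearest day 0 island was 256 kb from the segment. Ighv6-3 is 1 of 3 Ighv6 segments wholly covered on day 3, beside Ighv6-6 and the pseudogene Ighv6-2. Their islands held 319 reads at 44.3 reads per kb over Ighv6-6 and 476 reads at 56.7 reads per kb over Ighv6-2. Another member, Ighv6-4, lay 73 bp from an island of 494 reads and was not counted. The Ighv6 family of 7 members had no island on day 0.

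Ighv12-3 and the pseudogene Ighv12-1 were also wholly covered on day 3, inside islands of 451 and 133 reads. Ighv13-2 lay inside an island of 178 reads. Ighv5-15 lay in the second longest heavy chain island, of 10.8 kb and 533 reads (interval 489 to 580). Ighv3-3 was touched over 75 of its 437 bp, or 17.2%, by an island of 319 reads. All of these segments lie in the run of 34 islands.

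The Ighv1 family is the largest of the heavy chain, with 92 segments, and its members lie 779 to 2437 kb from the end nearest the D and J genes. It had an island over 4 segments on day 3 (4.35%) and over 1 on day 0 (1.09%). The other 91 heavy chain segments had one over 8 (8.79%) on day 3 and over 2 (2.20%) on day 0. Within 10 kb of a segment, islands covered on average 4.30% on day 3 and 0.618% on day 0 for Ighv1, and 12.7% on day 3 and 2.81% on day 0 for the other heavy chain families. The members with a day 3 island were Ighv1-14, the pseudogene Ighv1-46, Ighv1-47 and Ighv1-49, in islands of 269, 447, 513 and 357 reads. The last 3 belong to the second run. Ighv1-45 lay 54 bp from an island on day 3 and was not counted. Overlapping neighbourhoods share islands, so segments are not independent of each other.

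On day 0 alone an island lay over Ighv5-17 (135 reads, 32.1 reads per kb) and over the pseudogenes Ighv5-18 (111 reads, 39.6 reads per kb) and Ighv1-48 (187 reads, 29.2 reads per kb). The density over Ighv5-17 and Ighv1-48 fell short of the lowest day 3 value, and that over Ighv5-18 did not. Ighv1-48 lay 0.680 kb from a day 3 island, and Ighv5-18 3.56 kb from one. The Ighv2 family, the family that with Ighv5 lies nearest the D and J genes, had no island over any of its 11 members on either day. With so few members the Wilson interval reaches 25.9% on each day, above the 4.92% of short genes on day 3. Ighv2-8, a member, lay 160 bp from a day 0 island.

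Of the 162 kappa segments, 6 had an island on day 3 against 3 on day 0. Igkv5-39 (69900424 to 69900977) was wholly covered on both days and was the only V segment with an island on both. Its island ran from 69899601 to 69906000 with 299 reads at 46.7 reads per kb on day 3, and from 69899601 to 69905400 with 166 reads at 28.6 reads per kb on day 0. The 997 kb stretch without a day 3 island ends where this island begins. Within that stretch its relative Igkv5-48 had an island on day 0 alone (125 reads, 31.2 reads per kb), 172 kb from the nearest day 3 island. Igkv19-93 had an island on day 0 alone as well (150 reads, 31.2 reads per kb). The density of all 3 of these day 0 islands fell short of the lowest day 3 value.

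On day 3 alone, Igkv1-131, Igkv2-112, Igkv16-104 and the pseudogene Igkv15-101 were wholly covered, and Igkv20-101-2 was covered over 46.4% of its 211 bp. The island over Igkv1-131 was the longest in the kappa V region on day 3, at 8.60 kb with 441 reads (interval 401 to 484). The islands over Igkv2-112, Igkv16-104, Igkv20-101-2 and Igkv15-101 held 152, 194, 213 and 148 reads. The pseudogene Igkv15-101 and Igkv20-101-2 are near neighbours, and the segment Igkv15-101-1 between them lay 227 bp from an island without being touched. Igkv1-132 lay 387 bp and Igkv13-87 600 bp from a day 3 island and were not counted either. The largest kappa family, Igkv4, with 33 members in the middle of the locus, had no island over any member on either day. Their median distance to an island was 292 kb on day 3 and 180 kb on day 0. The Igkv13 family of 19 members had none either. The Wilson intervals reach 10.4% for Igkv4 and 16.8% for Igkv13 on each day, above the 4.92% of short genes on day 3. Many members lie in the 997 kb stretch without a day 3 island and are not separate observations. These counts therefore do not set the families apart from short genes.

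None of the 3 lambda segments had an island. Iglv3 lay 407 bp from the nearest one on day 3, Iglv2 12202 bp and Iglv1 20016 bp. On day 0 the distances were 177007 bp for Iglv3, 196202 bp for Iglv2 and 20816 bp for Iglv1. The 3 day 3 islands of the lambda V region held 119 to 296 reads and lay in 35.4 kb around Iglv3.

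Pseudogenes and V segments annotated as such were both rarely covered. Of the 225 V segments, 14 had an island on day 3 against 4 on day 0. Of the 123 pseudogenes, 4 had one on day 3 against 2 on day 0. No test was made between these groups.

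Median read densities of the V region islands lay between the quartiles of each whole list, except for kappa on day 0. Of the 44 heavy chain islands of day 3, 32 were denser than the median of that day's list. On day 3 the median was 56.0 reads per kb over the 44 heavy chain islands, 53.8 over the 29 kappa islands and 54.1 over the 3 lambda islands, beside 52.9 over all day 3 islands (quartiles 49.0 and 57.5). On day 0 it was 34.8 over the 8 heavy chain islands and 31.2 over the 8 kappa islands, beside 34.1 over all day 0 islands (quartiles 31.9 and 36.7). In 10 of the 16 day 0 islands the density fell short of the lowest day 3 value. Day 3 islands in the V regions had a median length of 3.60 kb, the same as the whole day 3 list, and day 0 islands one of 4.90 kb, against 4.80 kb for the whole day 0 list.

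**Figure D4:**
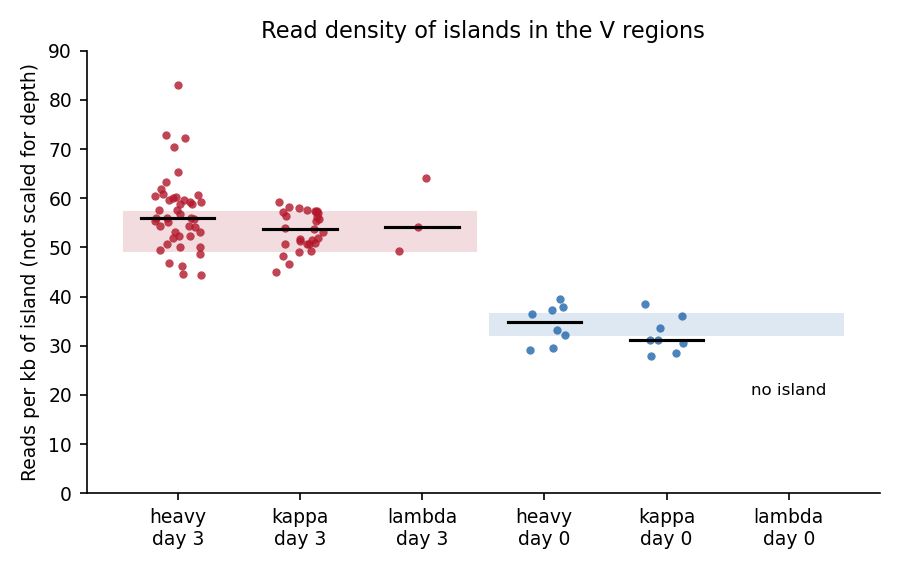
Reads per kb of each island in the V regions, by locus, on day 3 (red) and day 0 (blue), not scaled for depth. Black lines are medians and shaded bands span the quartiles of all islands of that day. The heavy chain medians of 56.0 on day 3 and 34.8 on day 0 lie inside their bands. The kappa median of 31.2 on day 0 lies below its band.

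Islands of the 2 days overlapped in 8 places. Of the 76 day 3 islands, 8 (10.5%, interval 5.43 to 19.4) met one of day 0, and of the 16 day 0 islands, 8 (interval 28.0% to 72.0%) met one of day 3. Over the whole lists the shares were 14.9% of day 3 islands and 33.6% of day 0 islands. In the 8 pairs day 3 had 1.20 to 1.91 times the read density of day 0, with a median of 1.57, which is also the median over all 7306 pairs. The closest match in position was over Igkv5-39, and the next was a kappa pair near Igkv1-88. There the day 3 island (68872601 to 68879400, 335 reads) lay wholly inside the day 0 island (68872401 to 68880400, 269 reads).

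Few D, J and constant genes were covered on either day. None of 20 D segments had an island on either day. Of 14 J segments, 3 had one on day 3 (21.4%) against 1 on day 0 (7.14%). Of 13 constant genes, 1 had one on each day (7.69%). The shares of V segments were 5.17% on day 3 and 1.72% on day 0, and those of genes no longer than the longest V segment 4.92% and 2.78%. Igkj1 and Igkj2 lay under the same island, so the 3 J segments are not separate observations and their share cannot be set against these. An island over Igkj1 and Igkj2 on day 3 (chromosome 6, 70717801 to 70723200) held 320 reads (interval 286 to 357). The 22.6 kb of kappa J and constant genes were covered over 23.9% on day 3 and 16.8% on day 0, by 1 island each. Iglj1 and Iglc1 lay inside 1 island on each day, with 427 reads at 49.7 reads per kb on day 3 and 170 reads at 35.4 reads per kb on day 0. On chromosome 12 the 317 kb of heavy chain D, J and constant genes were covered over 2.46% on day 3 and 2.21% on day 0, so the 2 days lay closer together there than in the adjoining V region.

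T cell receptor V segments, which T cells do rearrange, had an island over 12 of 178 members on day 3 (6.74%), against 6 on day 0 (3.37%). Among genes no longer than the longest immunoglobulin V segment, 4.92% had one on day 3 and 2.78% on day 0. The beta locus held most of them, with 12 of 35 Trbv segments (34.3%) on day 3 and 5 (14.3%) on day 0. Only 1 of 130 Trav segments had an island, Trav19 on day 0. No value was corrected for rearrangement of the T cell receptor loci, which limits comparison with the immunoglobulin V regions. The Trbv region was covered over 18.7% on day 3 and 8.07% on day 0, more than any immunoglobulin V region on the same day. The joint alpha and delta V region was covered over 2.20% on day 3 and 2.35% on day 0, below the heavy chain and kappa V regions on day 3 and above both on day 0.

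Genes that act on these loci were counted from 3 lists, beside the 18.3% of all genes with an island on day 3 and 14.7% on day 0. Longer genes have more room for an island: the median length was 40.2 kb in the recombination list, 39.9 kb in the regulator list and 3.27 kb in the partner list, against 6.00 kb over all genes, so these counts cannot be read against that share alone. Of 12 genes of the recombination machinery, 6 had an island on day 3 against 6 on day 0, with 5 in common. Rag2 had 3.69 kb covered on day 3 against 1.93 kb on day 0. Rag1, which with Rag2 encodes the recombinase, had no island on day 3 and was covered over 3.00 kb on day 0. Xrcc4, a gene of end joining that spans 241 kb, had 79.0 kb covered on day 3 against 23.0 kb on day 0. Prkdc, which encodes the catalytic subunit of DNA-dependent protein kinase and spans 205 kb, had 45.2 kb covered on day 3 against 48.0 kb on day 0.

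Of 14 genes for regulators of the loci, 7 had an island on day 3 against 6 on day 0. Pou2f1, whose product binds the octamer motif of V promoters, had 49.9% of its body covered on day 3 against 35.8% on day 0. Ebf1, a B cell transcription factor gene, had 41.8 kb covered on day 3 against 29.0 kb on day 0. Yy1 had 33.1% of its body covered on day 3 but none on day 0, and Irf8 had no island on day 3 and 4.40 kb covered on day 0. Pax5, the gene of the B cell identity factor, had no island on either day. Of 6 genes of receptor partners, none had an island on day 3 and 1, the B cell receptor signalling gene Cd79b, had one on day 0, over its whole 3.22 kb. The median covered length of a gene was 1.84 kb on day 3 against 0.964 kb on day 0 in the recombination list, and 1.80 kb on day 3 against 0 on day 0 in the regulator list. In the partner list it was 0 on both days. These lists were chosen with results of these data known.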

How the data were processed

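H3K9me3 native ChIP-seq libraries, 1 for day 3 and 1 for day 0, were analysed from the deposited island lists. The submitters' processing notes name Bowtie2, SICER version 1.1 and build mm10. The threshold, gap size, duplicate handling and use of input were not given in the sources used here. The deposited lists hold 1 unnamed whole number per island, which was taken to be a raw read count, unscaled for depth, length or input; no source used here states this.

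Island borders fell on multiples of 200 bp and were converted to 1-based positions. Coverage, overlap of at least 1 bp and distances to islands were computed in Python 3.11.15 with pandas 2.3.3, and the functions were tested on simulated islands. Shares have 95% Wilson intervals and read counts exact Poisson intervals. Genes came from the RefSeq table of GRCm38.p6, which gives neither strand nor exons. Genes listed on unplaced or alternate sequences were left out. Every V segment with an island on either day was named, and the 3 nearest without one in each locus. The planned search for promoter motifs was not run, since the promoter table used here held 0 windows of V segments, and no sequence is printed. The members and lists were chosen with earlier results of these data known. The bins, the runs of islands, the windows of equal length and the 10 kb neighbourhoods were chosen after the data were seen. Alternatives changed the islands kept, the overlap, the region borders and the flank width.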

Additional observations from a re-analysis of the deposited data

How the results depend on the processing

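No paired analysis was possible because each day had 1 library. When only the 19989 day 3 islands richest in reads were kept, day 3 coverage was 7.03% of the heavy chain, 1.52% of the kappa and 3.41% of the lambda V region, and the V region less its flanks was -5.60 percentage points for kappa and turned to 0.915 for lambda. When islands below their list's median density were dropped, 11 segments had one on day 3 against 1 on day 0, coverage was 5.90% and 0.607% (heavy chain, day 3 and day 0), 1.64% and 0.216% (kappa) and 2.73% (lambda, day 3), and the V region less its flanks was 3.83 and -1.87 points (heavy chain), -3.41 and -4.23 (kappa) and -1.78 (lambda, day 0). Median densities were then 57.5 on day 3 and 37.5 on day 0, and 1 day 0 island was overlapped on day 3. When islands below their list's median read count were dropped, 2 segments had an island on day 0, coverage was 7.03% and 0.812% (heavy chain), 1.75% and 0.921% (kappa) and 3.41% (lambda, day 3), the differences were -6.45 and -2.91 points (kappa), 0.175, turned, on day 3 and -1.84 on day 0 (lambda), and 4 day 0 islands were overlapped. Islands within 2 kb were found at 43 segments on day 3 and 10 on day 0. With the whole locus in place of the V region, heavy chain coverage on day 3 was 8.24% and its difference 3.91 points, and lambda coverage on day 0 was 1.23% and its difference -2.09. Flanks of 500 kb gave 3.01 and -3.25 points (heavy chain, day 3 and day 0), -8.00 (kappa, day 3) and -1.50 (lambda, day 0). Flanks of 2 Mb gave -9.47 (kappa, day 3) and 1.32, turned, for lambda on day 3. When 50% of an island had to be shared, 5 day 0 islands were. Without day 0 islands less dense than any day 3 island, a choice made after seeing the data, 1 segment had an island on day 0, day 0 coverage was 0.607% (heavy chain) and 0.216% (kappa), the differences were -1.87, -4.23 and -1.78 points (heavy chain, kappa, lambda), the median density was 37.5 and 3 day 0 islands were overlapped on day 3. Of the alternatives tried, those that left fewer islands lowered coverage by construction, and the cause of the other changes was not tested.

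The heavy chain V region exceeded the mean of both flanks on day 3 and fell short of it on day 0, and the kappa V region fell short on both days, under each alternative that changed the islands kept, the region borders or the flank width. The lambda difference on day 3 did not keep its direction. The ratio of day 3 to day 0 coverage in the heavy chain V region was 5.74, and between 4.49 and 14.8 under the other choices of islands, when that of the autosomes was 1.98 and between 1.18 and 4.71. In the kappa V region it was 2.39, and between 1.07 and 15.6, below that of the autosomes with the shortened day 3 list (1.07 against 1.18) and with the read count limit (1.90 against 2.12). No named segment turned its direction. Each that differed between days had an island on 1 day only, so dropping islands or asking for more overlap could not turn it. Only the search within 2 kb could have. Of the 22 that differed between days, 12 kept a difference with the density limit, 14 with the read count limit and 17 with the shortened day 3 list. One library per day, no input and an unknown mapped depth limit what these lists can show.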
